A study of Homo sapiens with 45 samples.

Results

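The genes described here are 41 genes of homologous recombination and of the DNA damage checkpoint, taken by name from the 60624 genes listed in each of 4 count tables. The list was chosen with earlier results of these data known. Its counts beside the shares of all genes are therefore descriptions. All 41 were found by Ensembl identifier in every table, and all 41 had enough reads to be tested in every table. They fall into 7 roles: 7 genes of damage sensing and checkpoint signalling, 6 of end resection, 6 BRCA mediators, 8 strand exchange factors, 3 helicase or nuclease scaffold genes, 8 Fanconi anaemia genes and 3 subunits of replication protein A (RPA).

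Homologous recombination repairs broken DNA from the sister copy. Broken ends are first cut back to single strands, RPA covers these strands, and the BRCA proteins, with strand exchange factors and motor proteins, then direct the pairing with the intact copy. The kinases ATM and ATR sense breaks and RPA-covered DNA and signal through CHEK2 and CHEK1 to hold the cell cycle, while the Fanconi anaemia proteins clear crosslinks between strands. Most of these genes are transcribed mainly in dividing cells, and breast cancers often carry inherited or acquired defects in them.

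RNA sequencing was run on 45 libraries labelled T47D, an established luminal breast cancer cell line and the only line used, in 15 groups of 3. ZHX2, a zinc finger and homeobox transcription factor, was the gene studied, and the stated aim was to find genes that hypoxia induces and ZHX2 regulates positively. The shRNA table held hypoxic cells carrying an shRNA to ZHX2 (shZHX2), hypoxic cells carrying a control shRNA (shCtrl), and shCtrl cells kept in normoxia. The hexanediol table held hypoxic cells with no shRNA named in the labels: a control labelled Ctrl, and cells given 0.5% or 1% 1,6-hexanediol for 24 h; this alcohol is used to dissolve protein condensates in cells. The rescue table held hypoxic shZHX2 cells with a ZHX2 form labelled WT, PA or SA or with an empty vector, and shCtrl cells with vector. What PA and SA stand for is not defined there. In the sgRNA table, sgZHX2 and teton_sgZHX2 cells had sgCtrl and teton_control cells as their controls, all in hypoxia. The labels give the cells as lentivirus-infected and drug-selected, and do not say whether replicates came from different cultures; each p-value therefore reflects variation among libraries, part or all of which may be technical.

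The libraries held 14111216 to 27217814 counted reads each. The summed level of 8 luminal epithelial markers (KRT8, KRT18, KRT19, EPCAM, CDH1, GATA3, ESR1 and FOXA1) was between 3560 and 59200 CPM (a gene's reads over the scaled total of its library), and that of 11 markers of basal, fibroblast, leukocyte and endothelial cells between 14.2 and 72.7 CPM. PTPRC, a leukocyte marker, averaged at most 1.09 CPM in any group. In hypoxic cells of the shRNA table, shZHX2 libraries held 5.15 ± 1.53 CPM of ZHX2 RNA and shCtrl libraries 18.8 ± 2.64 CPM (SD, n = 3). In the rescue table the vector groups held 6.86 ± 0.545 CPM with shZHX2 and 32.0 ± 1.99 CPM with shCtrl (SD, n = 3). With guides, ZHX2 RNA was at 49.6 ± 1.69 CPM in sgZHX2 and 45.1 ± 1.36 CPM in sgCtrl cells, so the RNA level gives no reading of editing at the guide's target.

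Per kilobase of exon, the members differed widely in level. In shCtrl cells in normoxia, FANCG, a core subunit of the Fanconi anaemia complex, was the highest at 24.2 ± 0.516 CPM per kb, and the RPA subunits RPA2 and RPA1 followed at 18.1 ± 0.841 and 12.1 ± 0.361 CPM per kb. The lowest were BRCA2 at 0.486 ± 0.0632, RAD51B at 0.392 ± 0.0461 and RAD50 at 0.334 ± 0.026 CPM per kb, and these 3 neighbours lay close to their spread. RAD50 shares exons with a same-strand gene, AC116366.3, so its reads may be split and its level is uncertain. ATRIP shares exons with TREX1, CHEK1 with STT3A, RAD54B with FSBP and RAD51D with a readthrough gene; CHEK2 has 4 named pseudogene copies and RPA2 has 3, and the strand setting of the counting is not given in the sources used here.

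**Figure D1:**
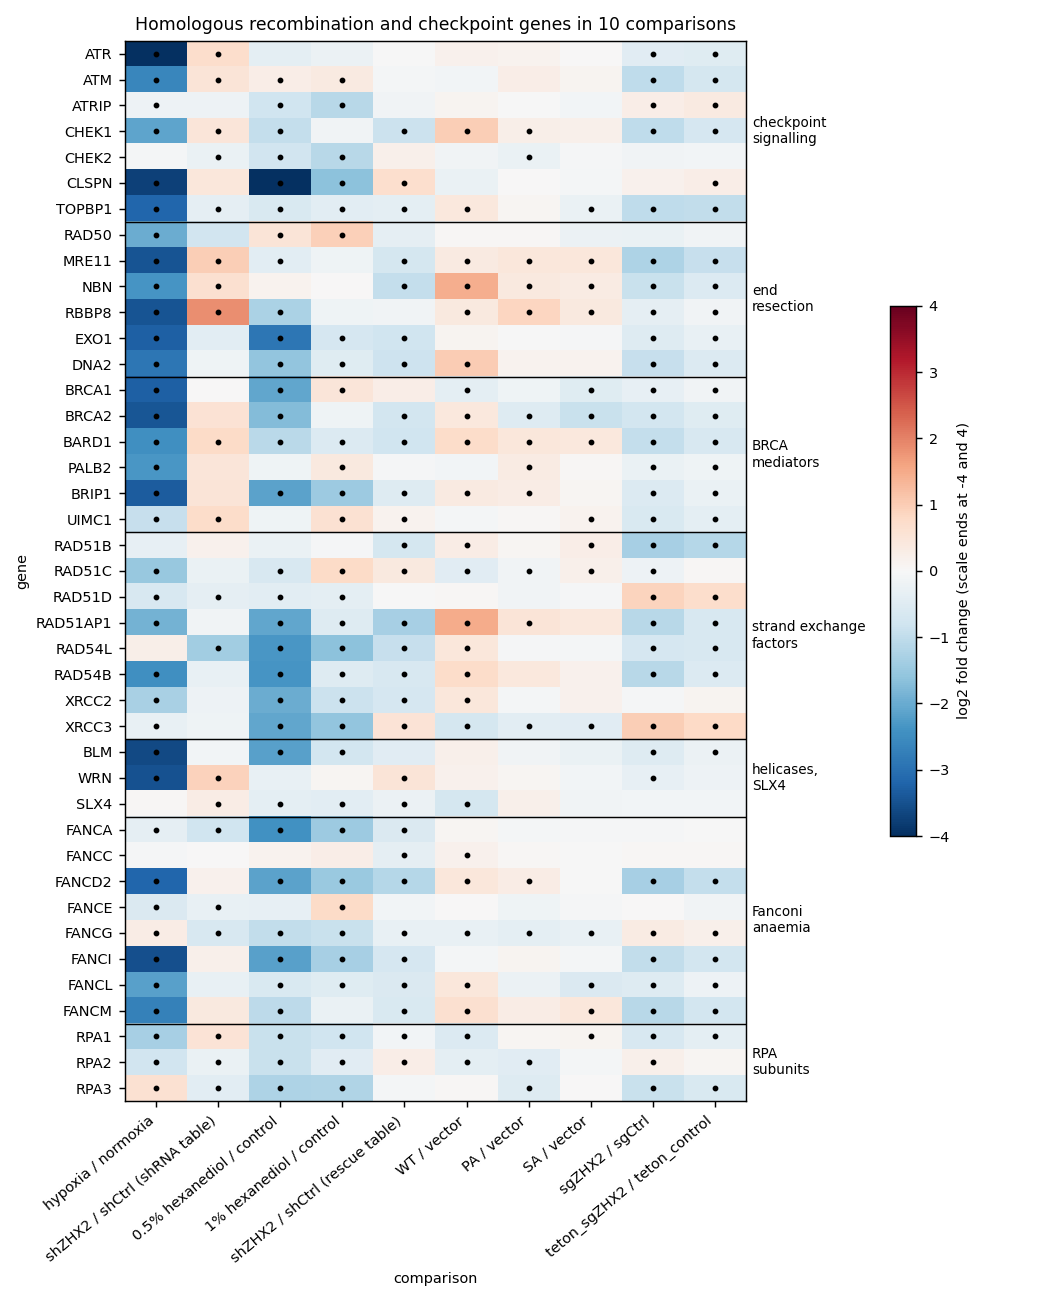
Log2 fold change (colour, ends at -4 and 4) of the 41 genes (rows, ordered by role) in 10 comparisons (columns, first-named group over the second); a black dot marks a call at an adjusted p under 0.05. The hypoxia and 0.5% hexanediol columns are mostly blue, with 34 and 31 genes lower, while the shZHX2 column of the shRNA table holds 11 genes higher and 9 lower.

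Hypoxia lowered most of the genes. In shCtrl cells, 34 of 41 members fell in hypoxia relative to normoxia and 2 rose at an adjusted p under 0.05 (edgeR's quasi-likelihood test, Benjamini-Hochberg adjustment over all genes tested), where 36.8% of all genes tested were lower and 43.1% higher. At least 2-fold falls were seen in 27 members, against 21.8% of all genes. The median log2 fold change of the members was -2.16, and that of all genes 0.12. In bulk RNA, fewer cells expressing a gene and less RNA per cell cannot be told apart.

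Among the checkpoint genes, ATR (ENSG00000175054, chr3:142449235-142578826 on GRCh38, minus strand), the kinase that responds to RPA-covered DNA, changed most of all members. ATR was at 1.17, 1.01 and 1.40 CPM in the hypoxic shCtrl libraries, against 22.0, 23.2 and 24.5 CPM in the normoxic ones. The hypoxic libraries all lay far below the normoxic ones, a 19.3-fold fall (log2 fold change -4.27, SE 0.15, adjusted p = 4.11e-34). ATM, the kinase activated by double-strand breaks, had 2.80, 2.02 and 3.22 CPM in hypoxia and 14.6, 18.7 and 16.0 CPM in normoxia, again without overlap (log2 fold change -2.61, SE 0.14). CHEK1, the kinase that ATR activates, had 11.3, 10.5 and 12.5 CPM in hypoxia against 49.8, 48.1 and 50 CPM in normoxia (log2 fold change -2.11, SE 0.07). CLSPN, the adaptor claspin that brings CHEK1 to ATR, had 0.586, 1.08 and 1.03 CPM in hypoxia and 11.5, 12.1 and 13.0 CPM in normoxia (log2 fold change -3.75, SE 0.19), and TOPBP1, an activator of ATR, changed by -3.17. CHEK2, the kinase downstream of ATM, did not pass the test, at 12.0, 12.0 and 11.5 CPM in hypoxia and 12.0, 12.4 and 12.7 CPM in normoxia, where the groups overlapped (log2 fold change -0.07, SE 0.10, adjusted p = 0.551). ATRIP, the partner that holds ATR to RPA, fell by 0.20 on the log2 scale, and the difference from ATR was not tested.

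All 6 end resection genes fell. MRE11, RAD50 and NBN form the complex that opens the break, and their log2 fold changes were -3.46, -1.98 and -2.35. RBBP8, the co-nuclease CtIP, stood at 1.11, 1.52 and 0.973 CPM in hypoxia and 12.7, 13.9 and 13.3 CPM in normoxia (log2 fold change -3.47). The long-range nucleases EXO1 and DNA2 changed by -3.26 and -2.88. All 6 BRCA mediators fell as well. BRCA1 (ENSG00000012048, chr17:43044295-43170245 on GRCh38, minus strand), a ubiquitin ligase subunit that acts with BARD1, had 1.82, 1.14 and 1.70 CPM in hypoxia and 14.6, 14.3 and 16.4 CPM in normoxia (log2 fold change -3.27, SE 0.16, adjusted p = 1.53e-26). BRCA2, a mediator that acts on resected ends, was at 0.521, 0.506 and 0.608 CPM in hypoxia, against 5.07, 6.45 and 6.37 CPM in normoxia, with no overlap (log2 fold change -3.44, SE 0.25). BARD1, PALB2, which joins BRCA1 to BRCA2, and the helicase BRIP1 changed by -2.46, -2.34 and -3.31, and UIMC1, which brings BRCA1 to ubiquitin chains, by -0.92.

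The later roles were less uniform. Of the 8 strand exchange factors, 6 fell, with a median log2 fold change of -0.98; the motor protein RAD54L (0.23) and RAD51B (-0.32) did not pass the test. RAD54B, the second such motor protein, changed by -2.46. BLM, a RecQ helicase, had 0.391, 0.126 and 0.669 CPM in hypoxia against 4.37, 5.27 and 5.25 CPM in normoxia (-3.62, SE 0.30). WRN, its relative, changed by -3.49, and SLX4, a scaffold for nucleases, had 0.06 and no call. Among the Fanconi anaemia genes, FANCI and FANCD2, the pair that is ubiquitinated at crosslinks, changed by -3.51 and -3.16, the translocase FANCM by -2.72 and the ubiquitin ligase FANCL by -2.16. FANCI had 2.60, 3.10 and 2.49 CPM in hypoxia against 31.0, 31.6 and 31.1 CPM in normoxia. The 2 members that rose were FANCG, with 112, 102 and 106 CPM in hypoxia against 86.9, 89.6 and 86.0 CPM in normoxia (log2 fold change 0.29, SE 0.04), and RPA3, the smallest RPA subunit, with 41.3, 45.4 and 42.0 CPM against 26.4, 29.6 and 27.7 CPM (log2 fold change 0.62, SE 0.06, adjusted p = 7.8e-14). The other RPA subunits fell, RPA1 by 1.31 and RPA2 by 0.77 on the log2 scale.

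**Figure D2:**
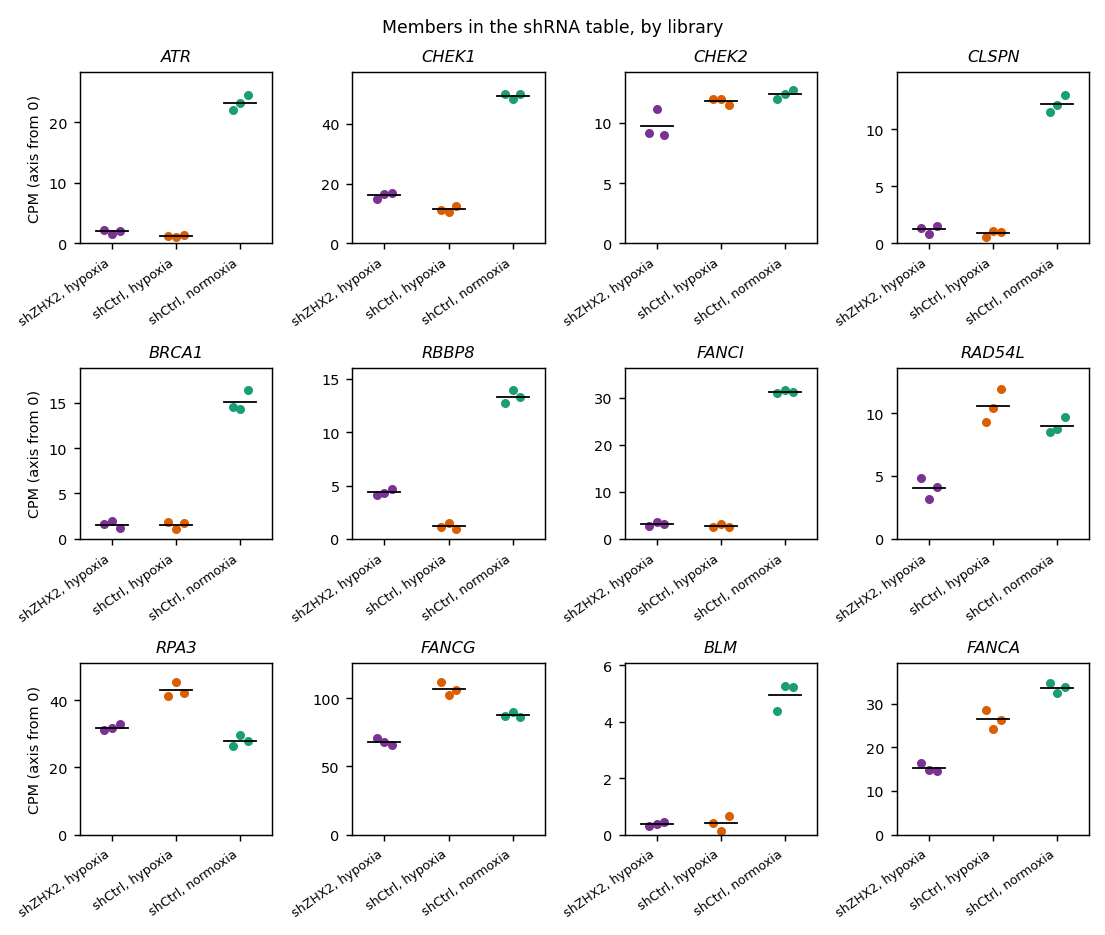
CPM (vertical axes, from 0) of 12 members in the 9 libraries of the shRNA table; points are libraries, lines are group means, with shZHX2 in hypoxia at the left, shCtrl in hypoxia in the middle and shCtrl in normoxia at the right. ATR, CLSPN, BRCA1 and BLM are low in both hypoxic groups, while RPA3 and FANCG are highest in hypoxic shCtrl cells.

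The size of the hypoxia change was tied to base composition. Across all genes the log2 fold change had a Spearman correlation of 0.69 with exonic GC content, and across the 41 members 0.65 (genes of the same libraries, not independent replicates). Among genes below the median GC content of 49.7%, which held 33 members, the median log2 fold change was -0.77 for all genes and -2.46 for the members. At or above it, the 8 members had a median of -0.12 and all genes one of 0.58. With offsets for GC content and exonic length, 35 members were lower and 2 higher, where 36.8% of all genes were lower and 33.7% higher, and the members' median was -1.03. Of the 34 genes lower without the correction, 32 were lower with it; the values of ATR, BRCA1 and CLSPN became -2.78, -2.09 and -3.17. FANCG turned to -0.45 and was then called lower, and it was at -0.20 when libraries were scaled by total count alone, so its direction rests on the scaling. RAD54L (-0.27) and SLX4 (-0.43) also turned with the offsets and were then called lower, and RAD51B (0.56) turned and was called higher, while RAD51D and XRCC2 lost their lower calls. When libraries were scaled by total count alone instead, 39 members were lower and 1 higher, beside an all-gene median of -0.36. How many members lacked a call thus also rested on the scaling. The share of all genes under that scaling is not given here.

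Other values moved with hypoxia. The summed level of 15 proliferation markers was 1090 to 1100 CPM in hypoxic and 2140 to 2180 CPM in normoxic shCtrl libraries, and all 15 were lower. Luminal markers summed to 58500 to 59200 CPM in hypoxia against 22300 to 24100 CPM in normoxia, and the 11 non-luminal markers to 47.5 to 52.2 CPM against 33.9 to 37.5 CPM. Mitochondrial genes took 9.12% to 9.57% of counts in hypoxia and 4.55% to 4.76% in normoxia. The sum of 10 hypoxia markers such as CA9 was 6590 to 6630 CPM in hypoxia against 882 to 916 CPM in normoxia. The part of these in the members' change was not tested. Among further genes of recombination and Fanconi anaemia repair, 11 rose and 20 fell of 35 tested (median -0.56). Of 18 other checkpoint genes 4 rose and 10 fell, of 12 end joining genes 2 rose and 10 fell, and of 16 mismatch and excision repair genes 2 rose and 13 fell.

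**Figure D3:**
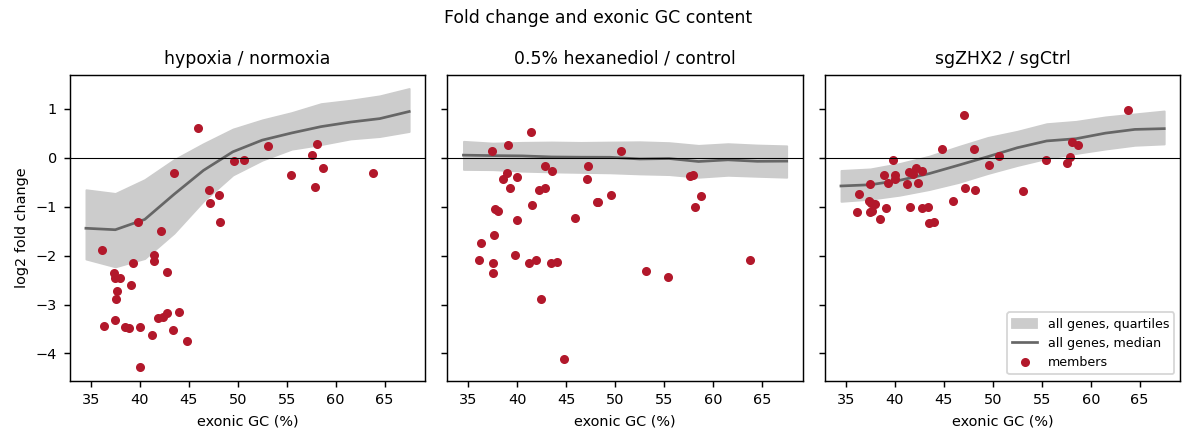
Log2 fold change (vertical axis) against exonic GC content (horizontal axis, %) in 3 comparisons; red points are the 41 members, the grey line and band are the median and quartiles of all genes tested in GC bins. The all-gene line climbs with GC for hypoxia and for sgZHX2 and is flat for 0.5% hexanediol, where the correlation was -0.06.

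With knockdown of ZHX2 in hypoxia, members were called in both directions, on neither side more often than all genes. In the shRNA table, 11 members rose and 9 fell with shZHX2 relative to shCtrl in hypoxia, against 33.6% of all genes higher and 33.2% lower, and the members' median was 0.01. This comparison shares the hypoxic shCtrl libraries with the one above. RBBP8 rose most, with 4.16, 4.30 and 4.64 CPM in shZHX2 and 1.11, 1.52 and 0.973 CPM in shCtrl libraries (log2 fold change 1.86, SE 0.20, adjusted p = 3.76e-12). MRE11 had 3.46, 3.37 and 3.20 CPM with shZHX2 against 1.56, 1.84 and 1.70 CPM (log2 fold change 0.97, SE 0.19), and BARD1 had 3.23, 2.83 and 3.15 CPM against 1.56, 1.90 and 1.89 CPM (0.78). WRN had 0.866, 1.09 and 0.828 CPM with shZHX2 and 0.521, 0.569 and 0.365 CPM with shCtrl (0.93), and NBN rose by 0.64. In RBBP8, MRE11, BARD1 and WRN the groups did not overlap. ATR had 2.25, 1.63 and 2.04 CPM with shZHX2 (0.72, SE 0.23), against 1.17, 1.01 and 1.40 CPM with shCtrl, and its level stayed far under the normoxic 23.2 ± 1.27 CPM. CHEK1 had 15.0, 16.6 and 16.7 CPM with shZHX2 and 11.3, 10.5 and 12.5 CPM with shCtrl (log2 fold change 0.50, SE 0.08).

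The falls with shZHX2 lay in other genes. RAD54L had 4.85, 3.21 and 4.09 CPM with shZHX2 and 9.25, 10.4 and 11.9 CPM with shCtrl, with no overlap (log2 fold change -1.38, SE 0.14, adjusted p = 4.37e-13). FANCA, a Fanconi core subunit, had 16.5, 14.7 and 14.5 CPM against 28.7, 24.4 and 26.3 CPM (log2 fold change -0.79), and FANCG had 70.7, 68.3 and 65.9 CPM against 112, 102 and 106 CPM (-0.64). RPA3 changed by -0.43 and TOPBP1 by -0.37. CHEK2 had 9.12, 11.1 and 9 CPM with shZHX2 against 12.0, 12.0 and 11.5 CPM (-0.28, SE 0.11). BRCA1, at 1.62, 1.96 and 1.16 CPM with shZHX2 against 1.82, 1.14 and 1.70 CPM, overlapped and did not pass the test. BRCA2 did not pass it either, at 0.866, 0.762 and 0.828 CPM with shZHX2 against 0.521, 0.506 and 0.608 CPM (0.58, SE 0.36, adjusted p = 0.152), although its groups did not overlap. ATM had 3.52, 3.70 and 4.25 CPM with shZHX2 against 2.80, 2.02 and 3.22 CPM with shCtrl. ATM (0.51, adjusted p = 0.0113) lost its call without shZHX2 replicate 3 (0.43) or shCtrl replicate 2 (0.34), and CHEK2 without shZHX2 replicate 1 (-0.23) or 3 (-0.22), while ATR (0.48, adjusted p = 0.0641) and ATM (0.19, adjusted p = 0.348) also lost it with the GC and length offsets. So did WRN (0.75, adjusted p = 0.0753) and FANCE, which was at -0.29 without the offsets and -0.10 with them. Scaled by total count alone, 17 members rose and 4 fell, beside a shift of the all-gene median to 0.26. The share of all genes called under that scaling is not given here, so these counts cannot be set against it. Proliferation markers summed to 700 to 719 CPM with shZHX2 against 1090 to 1100 CPM, and luminal markers to 27300 to 27600 CPM against 58500 to 59200 CPM. Their part in the result was not tested.

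Hexanediol in hypoxia gave the steepest falls at the lower dose. The second library of each treated group stood apart from the rest of its group; results that rest on it are given with and without it. At 0.5%, 31 members fell and 2 rose relative to hypoxic control cells, where 19.6% of all genes were lower and 19.4% higher; 19 members fell at least 2-fold, against 4.62% of all genes, and the median was -0.96. At 1%, 24 fell and 7 rose (32.3% and 30.2% of all genes), with a median of -0.46. Set against 0.5%, the 1% libraries had 27 members higher and 1 lower (28.3% and 27.7% of all genes), 12 of them at least 2-fold higher, where 8.94% of all genes were. These 3 comparisons share libraries and are given side by side. Without both second libraries, a choice made after seeing the data, 34 fell and 2 rose at 0.5%, 25 fell and 7 rose at 1%, and 26 were higher and 2 lower at 1% than at 0.5%. The shares of all genes without these libraries are not given here.

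CLSPN fell most at 0.5%. It was at 50, 51.5 and 54.1 CPM in control libraries, 2.39, 4.24 and 2.28 CPM at 0.5% and 18.5, 14.2 and 17.2 CPM at 1%. The 3 groups were fully apart, with the lowest values at 0.5% (log2 fold change -4.12, SE 0.18, adjusted p = 1.74e-09 at 0.5%, and -1.64, SE 0.14 at 1%). EXO1 went the same way, with 38.1, 42.5 and 39.8 CPM in control, 5.74, 5.43 and 4.97 CPM at 0.5% and 27.6, 22.1 and 26.2 CPM at 1% (-2.90 at 0.5% and -0.67 at 1%). BRCA1 was lowest at 0.5% and highest at 1%, with 65.7, 64.2 and 65.7 CPM in control, 14.1, 15.9 and 16.0 CPM at 0.5% and 94.3, 81.3 and 96.4 CPM at 1%. BRCA1 thus fell at 0.5% (-2.09, SE 0.09) and rose at 1% (0.48, SE 0.08, adjusted p = 0.000114), and the difference between doses was 2.56 (SE 0.09, adjusted p = 5.18e-11). BRCA2 had 23.7, 23.2 and 23.8 CPM in control, 7.09, 5.56 and 8.60 CPM at 0.5%, and 21.5, 17.9 and 23.2 CPM at 1%, where it overlapped the control and did not pass the test (-0.18; called lower with GC and length offsets).

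Checkpoint kinases differed from each other. CHEK1 had 86.6, 83.1 and 86.7 CPM in control, 41.2, 42.0 and 48.3 CPM at 0.5% (log2 fold change -0.96) and 82.3, 68.3 and 82.7 CPM at 1% (-0.14, no call, but called lower with the offsets). CHEK2 was lower at each dose, with 34.8, 31.4 and 34.0 CPM in control, 20.4, 19.3 and 19.9 CPM at 0.5% and 15.3, 15.4 and 15.8 CPM at 1% (-0.75 and -1.11), and was the only member called lower at 1% than at 0.5% (-0.36, SE 0.09, adjusted p = 0.00287). ATM was called higher at both doses, with 96.4, 92.3 and 106 CPM in control, 121, 110 and 121 CPM at 0.5% and 130, 120 and 130 CPM at 1% (0.26 and 0.37). Its call at 0.5% was lost without control replicate 1 (0.26) or 2 (0.23), and both calls were lost with GC and length offsets (0.16, adjusted p = 0.0917, at 0.5% and 0.04, adjusted p = 0.67, at 1%). ATR did not pass the test at either dose, with 57.9, 51.4 and 59.7 CPM in control, 34.0, 58.0 and 36.3 CPM at 0.5% and 46.3, 53.3 and 44.8 CPM at 1%. The second library at 0.5% lay within the control range and the other 2 below it. Without the second 0.5% library its change was -0.68 and passed the test, and without both second libraries the change at 1% was -0.31 and passed it too. ATRIP fell at both doses (-0.78 and -1.12).

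RAD50 was the other member that rose at 0.5%, with 11.2, 11.8 and 11.6 CPM in control, 15.5, 18.2 and 15.8 CPM at 0.5% and 21.4, 23.1 and 21.6 CPM at 1% (0.52 and 0.94). Its complex partners MRE11 and NBN changed by -0.44 and 0.14 at 0.5%, of which only MRE11 was called. RAD50 shares exons with a same-strand gene, so its values are uncertain, and the difference from its partners was not tested. At 1%, FANCE, a Fanconi core subunit, had 15.6, 14.2 and 15.8 CPM against 10.4, 7.87 and 8.35 CPM in control (0.78), and the strand exchange factor RAD51C 29.8, 30.8 and 31.5 CPM against 17.8, 19.4 and 16.7 CPM (0.77). UIMC1 had 93.2, 79.7 and 97.8 CPM at 1% against 61.8, 57.7 and 56.5 CPM (0.62), and PALB2 rose by 0.40. With BRCA1, ATM and RAD50 these are the 7 members that rose at 1% before any offsets. FANCA was at 13.2, 13.5 and 13.9 CPM in control, 2.52, 2.98 and 2.01 CPM at 0.5% and 4.80, 5.27 and 4.60 CPM at 1%. Of the strand exchange factors, 7 of 8 fell at 0.5%, with RAD54L at -2.32, RAD51AP1, which aids strand invasion, at -2.09 and XRCC3 at -2.09. RAD54B had 4.10, 5.84 and 5.09 CPM in control, 1.03, 0.728 and 1.14 CPM at 0.5% (-2.36) and 4.14, 2.47 and 3.85 CPM at 1% (-0.53). At 1% the steepest falls beside that of CLSPN were those of RAD54L, with 1.45, 1.54 and 1.74 CPM against 3.82, 5.24 and 5.80 CPM in control (-1.65), and XRCC3, with 1.84, 2.75 and 1.80 CPM against 6.04, 6.97 and 6.46 CPM (-1.59). All 3 RPA subunits fell at both doses, RPA3 most (-1.24 and -1.22). FANCD2 had 16.1, 14.0 and 13.7 CPM at 1% against 39.5, 43.3 and 39.7 CPM in control (-1.49, and -2.13 at 0.5%), and FANCI changed by -1.33 at 1% and -2.16 at 0.5%.

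The changes at 1% also went with GC content, with a Spearman correlation of -0.30 over all genes. With GC and length offsets 30 members were lower and 6 higher at 1% (30.3% and 29.3% of all genes), with a median of -0.60. The 7 members that gained a call, all lower, were BRCA2 (-0.56, adjusted p = 0.00146), CHEK1 (-0.36, adjusted p = 0.00224), ATR (-0.52), MRE11 (-0.46), NBN (-0.30), RBBP8 (-0.40) and FANCM (-0.60). BRCA1 remained higher at 1%, by 0.24 (adjusted p = 0.0168), and SLX4 lost its lower call. Between the doses 22 of the 27 higher calls were kept with offsets, and NBN joined CHEK2 as lower at 1% (-0.46). The share of all genes with offsets is not given here for this step between doses.

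Proliferation markers followed the same order, with sums of 2960 to 3040 CPM in control, 676 to 925 CPM at 0.5% and 1840 to 2000 CPM at 1%; 15 of 15 were lower at 0.5% and 11 of 15 at 1%. Luminal markers summed to 24600 to 27400 CPM in control, 10200 to 15000 CPM at 0.5% and 3560 to 3790 CPM at 1%, the reverse order for the treated groups. Hypoxia markers summed to 3860 to 4010 CPM in control. By replicate they were at 2553, 474.6 and 2463 CPM at 0.5%, and at 1446, 646.6 and 1491 CPM at 1%. The low values are those of the second libraries, which stood apart. At 0.5% the second library also set the low end for proliferation markers (676.4 CPM, against 892.3 and 925.1 CPM). It did so for luminal markers too (10180 CPM, against 15050 and 14330 CPM). The part of these in the members' values was not tested. Of 36 other recombination and Fanconi genes 18 fell and 5 rose at 0.5%, and of 16 mismatch and excision repair genes 4 fell and 5 rose.

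**Figure D4:**
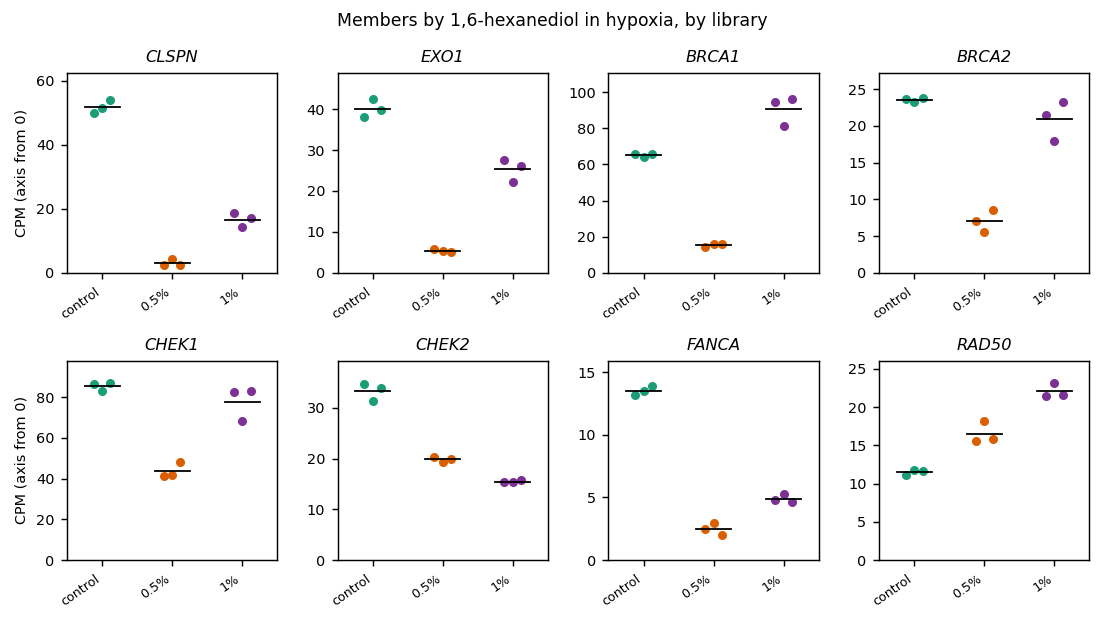
CPM (vertical axes, from 0) of 8 members in the 9 hypoxic libraries of the hexanediol table, by 1,6-hexanediol (control, 0.5% and 1%); points are libraries and lines group means. Most panels are lowest at 0.5%, CHEK2 is lowest at 1%, and BRCA1 and RAD50 are highest at 1%.

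Promoters were read because these genes moved together at 0.5% hexanediol. RefSeq on GRCh38.p14 gave a window of 250 bases before to 50 after the start for 34 of the 41 members. An E2F word, the binding motif of the factors that drive genes of DNA synthesis, was searched on both strands as TTTCCCGC, TTTCGCGC, TTTGGCGC or TTTGCCGC. It was in 7 of 34 member promoters (20.6%), those of CLSPN, TOPBP1, EXO1, XRCC2, FANCA, FANCC and FANCD2, and in 3.3% of the 35116 promoters in the table. For every word, only the first listed start of each member was used, while the wider count took all listed starts. GC content was not matched between them, so the shares are not like for like. A shorter spelling searched first, TTCGCGC or TTGGCGC, was in 6 of 34 (17.6%) against 5.1%; the longer one was chosen after that result was seen. At 0.5% hexanediol the 7 members with the longer spelling had a median log2 fold change of -2.13, with 6 of 7 lower, and the 27 without it one of -0.78, with 20 lower, as a description. This split was not made for the shorter spelling, which the promoters of CLSPN, XRCC2 and FANCD2 do not hold. The words CCAAT (44.1% of members, 34.6% of all), TTTGAA (8.8% and 15.2%) and the hypoxia response core ACGTG or GCGTG (70.6% and 48.4%) were also searched, and none of these other words lies within an E2F word.

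Shown first are 3 promoters of members that fell at 0.5% hexanediol and hold the E2F word, in capitals, and then that of ATM, which has no such word and was called higher there only without the offsets; they were picked with these values known. CLSPN lies at chr1:35769929-35770228 on the minus strand, EXO1 at chr1:241847954-241848253, FANCD2 at chr3:10026187-10026486 and ATM at chr11:108222817-108223116 on the plus strand, each written 5′ to 3′ along the gene.
CLSPN: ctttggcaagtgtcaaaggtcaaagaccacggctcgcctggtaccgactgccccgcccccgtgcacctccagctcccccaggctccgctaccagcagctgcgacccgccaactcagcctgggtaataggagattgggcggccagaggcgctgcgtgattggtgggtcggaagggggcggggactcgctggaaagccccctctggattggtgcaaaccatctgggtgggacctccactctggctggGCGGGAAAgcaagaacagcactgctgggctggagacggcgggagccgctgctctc
EXO1: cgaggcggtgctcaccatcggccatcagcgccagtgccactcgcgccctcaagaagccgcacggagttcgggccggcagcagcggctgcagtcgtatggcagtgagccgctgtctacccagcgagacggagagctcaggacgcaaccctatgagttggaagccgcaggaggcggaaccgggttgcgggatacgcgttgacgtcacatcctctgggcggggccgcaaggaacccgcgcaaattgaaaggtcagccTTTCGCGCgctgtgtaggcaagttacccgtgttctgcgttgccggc
FANCD2: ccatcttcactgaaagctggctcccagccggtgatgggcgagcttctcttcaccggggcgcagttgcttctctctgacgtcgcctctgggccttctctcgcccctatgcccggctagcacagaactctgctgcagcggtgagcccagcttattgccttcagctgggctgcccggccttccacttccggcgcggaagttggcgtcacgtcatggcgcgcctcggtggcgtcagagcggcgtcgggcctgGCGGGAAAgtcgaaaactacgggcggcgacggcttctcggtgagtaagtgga
ATM: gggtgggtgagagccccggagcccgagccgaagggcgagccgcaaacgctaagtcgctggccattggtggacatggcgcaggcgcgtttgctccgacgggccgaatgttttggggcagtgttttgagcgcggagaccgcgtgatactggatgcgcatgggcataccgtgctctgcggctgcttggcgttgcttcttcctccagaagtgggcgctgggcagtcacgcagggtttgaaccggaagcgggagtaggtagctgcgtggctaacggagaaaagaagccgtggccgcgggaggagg
The word starts 5 bases before the start in CLSPN, 2 before it in FANCD2 and at base 5 of the transcript in EXO1. A match is a description of the letters and not evidence of binding.

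In the rescue table, shZHX2 lowered more members than it raised. With vector, 23 members fell and 6 rose relative to shCtrl, against 35.3% of all genes lower and 33.9% higher (median -0.37). RAD51AP1 fell most, at 1.41, 1.99 and 1.31 CPM with shZHX2 against 3.77, 3.78 and 4.25 CPM with shCtrl (log2 fold change -1.33, SE 0.17, adjusted p = 2.13e-10). FANCD2 had 6.31, 5.43 and 4.41 CPM against 12.0, 11.0 and 12.4 CPM (-1.14), NBN 18.1, 17.9 and 15.0 CPM against 31.7, 32.8 and 32.7 CPM (-0.94), and CHEK1 7.98, 7.82 and 7.43 CPM against 13.9, 15.2 and 13.2 CPM (-0.87). RAD54L had 10.8, 9.81 and 11.5 CPM against 19.7, 20.3 and 21.1 CPM (-0.93), and BRCA2 3.13, 2.98 and 2.16 CPM against 4.44, 4.37 and 4.90 CPM (-0.74). The groups of these 6 genes did not overlap. Of the Fanconi anaemia genes 7 of 8 fell, and FANCE had -0.11 without a call. With GC and length offsets 20 members were lower and 8 higher (33.4% and 33.6% of all genes); TOPBP1 (-0.17, adjusted p = 0.0633), RAD54B (-0.42), FANCM (-0.32) and RPA1 (-0.03, adjusted p = 0.439) lost their calls, FANCE was called lower, and BRCA1 (0.53) and CHEK2 (0.22) were called higher.

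ATR, ATM, CHEK2 and BRCA1 did not pass this test. ATR had 2.27, 3.66 and 2.66 CPM with shZHX2 and vector against 3.00, 3.19 and 2.48 CPM with shCtrl, and ATM 2.42, 2.17 and 2.04 CPM against 2.72, 2.21 and 2.15 CPM, with overlap in both. CHEK2 had 10.2, 8.73 and 9.03 CPM against 8.04, 7.95 and 8.22 CPM (0.21, adjusted p = 0.0574), and BRCA1 3.74, 3.71 and 3.02 CPM against 2.88, 2.45 and 3.27 CPM (0.27, adjusted p = 0.129). Among the members that rose, CLSPN had 2.22, 2.08 and 2.41 CPM with shZHX2 against 1.39, 1.13 and 1.73 CPM (0.66), and XRCC3 23.0, 25.3 and 23.4 CPM against 18.8, 15.9 and 14.4 CPM (0.55). RAD51C had 46.0, 48.3 and 49.3 CPM against 36.6, 36.1 and 37.3 CPM (0.39), RPA2 35.5, 36.4 and 34.3 CPM against 27.7, 30.8 and 30.4 CPM (0.25), and WRN rose by 0.52. No library of the vector group reached into the shCtrl range for CLSPN, XRCC3, RAD51C or RPA2.

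The 2 tables with shZHX2 did not share libraries, and their calls differed for some members. Called lower in both were RAD54L (-1.38 in the shRNA table and -0.93 in the rescue table), FANCA, FANCG and TOPBP1, which are 4 of the 9 lower in the shRNA table and 4 of the 23 lower in the rescue table. WRN and UIMC1 were called higher in both. Under the offsets TOPBP1 lost its call in the rescue table and WRN in the shRNA table, while RAD54L, FANCA, FANCG and UIMC1 kept theirs in both. Another 6 members, CHEK1, MRE11, NBN, BARD1, SLX4 and RPA1, were called higher in the shRNA table and lower in the rescue table, and RPA2 the other way; the call of RPA1 in the rescue table was lost with offsets. The difference between tables was not tested, since they were sequenced and scaled apart. Shared and opposite calls were not counted over all genes either.

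Adding WT ZHX2 to shZHX2 cells raised 18 members and lowered 7 relative to vector (35.1% and 34.6% of all genes; median 0.17). Of the 23 members lower with shZHX2, 17 were higher with WT and 3 lower. Since both comparisons use the vector libraries, opposite signs are favoured by that shared group. The same count was not made over all genes. With GC and length offsets 11 members were higher with WT, where 34.0% of all genes were. Of the 18 members higher without offsets, 9 kept that call and 9 lost it. The members' median was then 0.006. NBN reached 46.6, 45.3 and 47 CPM with WT, against 18.1, 17.9 and 15.0 CPM with vector and 31.7, 32.8 and 32.7 CPM in shCtrl cells (log2 fold change 1.45, SE 0.06, adjusted p = 1.01e-33 against vector). RAD51AP1 was at 4.58, 4.33 and 4.15 CPM with WT (1.47), CHEK1 at 15.6, 15.7 and 15.0 CPM (1.00, SE 0.09) and DNA2 at 5.91, 6.37 and 5.92 CPM, against 2.83, 3.30 and 2.94 CPM with vector (1.00, SE 0.14). For these 4 genes every WT library lay above every vector library. SLX4 had 6.10, 4.97 and 5.86 CPM with WT against 9.29, 7.87 and 10.7 CPM with vector (-0.72), XRCC3 15.1, 14.6 and 14.1 CPM against 23.0, 25.3 and 23.4 CPM (-0.71), and RAD51C 36.4, 34.5 and 33.7 CPM against 46.0, 48.3 and 49.3 CPM (-0.46). RPA1 had 47.3, 46.0 and 46.9 CPM with WT, apart from both vector (66.4, 70.4 and 67.4 CPM) and shCtrl cells (71.1, 73.7 and 74.8 CPM), and its change against vector was -0.54. BRCA1 had 2.13, 2.98 and 2.90 CPM with WT (-0.39) and BRCA2 3.78, 3.68 and 3.47 CPM (0.42), but the first call was lost when WT replicate 1 (-0.24), vector replicate 1 (-0.34) or vector replicate 2 (-0.34) was left out, and the second without WT replicate 1 (0.39) or vector replicate 3 (0.26), and the BRCA2 value was 0.01 with GC and length offsets.

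PA and SA were set against the same vector libraries. PA raised 9 and lowered 7 members (24.7% and 22.9% of all genes), and SA raised 9 and lowered 6 (20.2% and 21.5%), so fewer of all genes than with WT were called as well. Under the offsets RBBP8 was the only one of the 9 higher with PA to keep its call, and none of the 9 higher with SA did. RBBP8 rose most with PA, with 8.81, 9.87 and 9.38 CPM against 4.80, 5.20 and 5.27 CPM with vector (log2 fold change 0.87, SE 0.11), and it had 7.01, 6.58 and 6.31 CPM with SA (0.38). BARD1 had 4.84, 5.12 and 5.50 CPM with PA and 5.39, 5.07 and 4.60 CPM with SA, against 4.29, 3.08 and 3.84 CPM with vector (0.47 and 0.43). MRE11 had 3.27, 3.51 and 3.11 CPM with PA and 2.92, 3.60 and 3.26 CPM with SA, against 2.27, 2.76 and 2.16 CPM with vector (0.46 and 0.44). RPA3 was lower with PA, at 27.6, 25.9 and 28.0 CPM against 40.3, 40.1 and 36.9 CPM with vector (-0.52), and had no call with SA (0.02). RPA2 had 27.0, 26.4 and 24.1 CPM with PA against 35.5, 36.4 and 34.3 CPM with vector (-0.45). XRCC3 was lower with both forms, at 18.2, 17.8 and 17.5 CPM with PA and 16.3, 17.0 and 18.6 CPM with SA, against 23.0, 25.3 and 23.4 CPM with vector (-0.42 and -0.47). FANCG had 51.6, 51.1 and 53.6 CPM with PA against 66.8, 69.5 and 68.2 CPM with vector (-0.39). BRCA2 was at 1.67, 1.41 and 1.30 CPM with SA and 3.13, 2.98 and 2.16 CPM with vector, without overlap (-0.90, SE 0.18, adjusted p = 3.02e-05). FANCL fell with SA, at 1.29, 1.51 and 1.25 CPM against 2.27, 1.94 and 1.80 CPM with vector (-0.56), and FANCM rose, at 2.80, 3.26 and 3.26 CPM against 2.27, 2.17 and 2.29 CPM (0.47). BRCA1 was at 2.34, 2.58 and 2.47 CPM with SA (-0.50) and 2.77, 2.64 and 3.83 CPM with PA (-0.18, no call), against 3.74, 3.71 and 3.02 CPM with vector.

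Set directly against WT, PA had 6 members higher and 12 lower (33.2% and 33.7% of all genes) and SA 6 higher and 13 lower (32.1% and 32.0%). NBN was lower than WT with both forms, at 23.1, 22.9 and 20.6 CPM with PA (-1.06) and 19.8, 19.9 and 23.4 CPM with SA (-1.14, SE 0.06, adjusted p = 3.72e-28). CHEK1 had 8.52, 9.12 and 9.96 CPM with PA and 9.98, 7.80 and 8.86 CPM with SA, against 15.6, 15.7 and 15.0 CPM with WT (-0.75 and -0.79). RAD51AP1 had 2.03, 2.64 and 2.06 CPM with PA and 1.96, 1.95 and 2.34 CPM with SA, against 4.58, 4.33 and 4.15 CPM with WT (-0.95 and -1.06). BRCA2 had 2.27, 1.69 and 1.77 CPM with PA, against 3.78, 3.68 and 3.47 CPM with WT (-0.93, and -1.32 with SA), and DNA2 changed by -0.87 and -0.86. SLX4 was higher than with WT, at 10.4, 10.4 and 11.5 CPM with PA and 9.06, 7.41 and 9.03 CPM with SA, against 6.10, 4.97 and 5.86 CPM with WT (0.92 and 0.59). RPA1 had 69.0, 72.3 and 74.1 CPM with PA and 70.3, 70.4 and 77.3 CPM with SA, against 47.3, 46.0 and 46.9 CPM with WT (0.62 and 0.64). RAD51C with SA was at 53.1, 54.4 and 58.2 CPM against 36.4, 34.5 and 33.7 CPM with WT (0.66). In all of these the PA or SA libraries lay wholly to one side of the WT libraries. ATR, ATM and CHEK2 passed no test against WT, and with PA their levels were 2.89 to 3.72, 2.32 to 3.06 and 7.07 to 8.57 CPM, against 2.93 to 3.64, 1.48 to 2.63 and 7.94 to 9.12 CPM with WT.

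**Figure D5:**
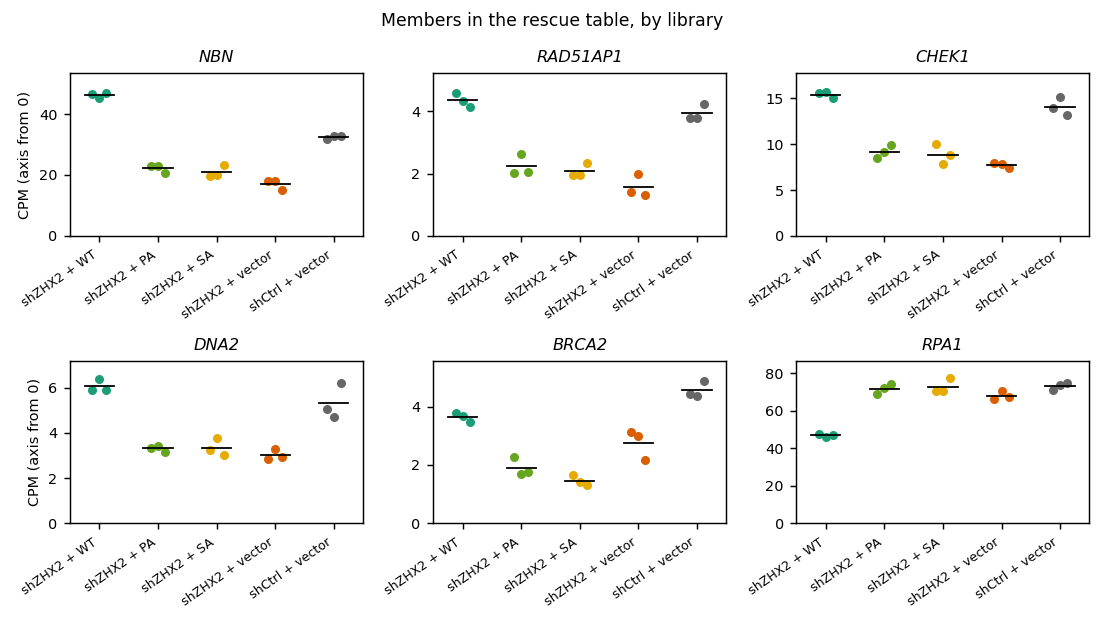
CPM (vertical axes, from 0) of 6 members in the 15 hypoxic libraries of the rescue table; points are libraries and lines group means, with shZHX2 plus WT, PA, SA or vector to the left of shCtrl plus vector. NBN, RAD51AP1, CHEK1 and DNA2 are higher with WT than with PA, SA or vector, and RPA1 is lower with WT than in the other 4 groups.

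The share of members called rested on the processing for these forms. The log2 fold changes against vector had Spearman correlations with GC of -0.38 for WT, -0.48 for PA and -0.54 for SA over all genes. With GC and length offsets, WT had 11 members higher and 8 lower (34.0% and 31.8% of all genes), PA 2 and 9 (16.6% and 18.1%), and SA 0 and 7 (13.7% and 13.0%; edgeR), while NBN, RAD51AP1, CHEK1 and DNA2 stayed higher with WT (1.09, 0.98, 0.77 and 0.62). Scaled by total count alone, the counts were 12 higher and 9 lower for WT, 18 and 4 for PA, and 15 and 8 for PA against WT, whose all-gene medians then stood at -0.10, 0.17 and 0.25. The shares of all genes called under that scaling are not given here, so these counts cannot be set against them. The forms also differed in level, with ZHX2 RNA at 72.3 ± 1.44 CPM in WT libraries, 54.0 ± 0.436 CPM in PA libraries and 80.5 ± 2.26 CPM in SA libraries (SD, n = 3). Proliferation markers summed to 1170 to 1210 CPM with WT, 808 to 812 with PA, 850 to 859 with SA, 859 to 888 with shZHX2 plus vector and 1470 to 1490 with shCtrl plus vector. Luminal markers summed to 44200 to 44900 CPM with WT, 29200 to 29400 with PA, 32500 to 32900 with SA, 31000 to 32300 with shZHX2 plus vector and 46400 to 47900 with shCtrl plus vector. Hypoxia markers summed to 24400 to 24700 CPM with WT, 15500 to 15600 with PA, 17600 to 17900 with SA, 15000 with shZHX2 plus vector and 22300 to 22600 with shCtrl plus vector. These 3 sums were higher with WT than with PA, SA or vector in shZHX2 cells. Mitochondrial genes took 0.312% to 0.333% of counts with WT, 1.16% to 1.26% with PA, 1.12% to 1.19% with SA, 0.785% to 0.807% with shZHX2 plus vector and 0.749% to 0.778% with shCtrl plus vector. The part of these in the members' values was not tested.

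With guides against ZHX2 the direction was mostly down. In sgZHX2 cells 28 members fell and 5 rose relative to sgCtrl, against 36.1% of all genes lower and 37.0% higher (median -0.52). In teton_sgZHX2 cells 26 fell and 5 rose relative to teton_control, against 34.7% and 34.4% (median -0.26). The 2 pairs have separate controls. All 26 members lower in the second pair were also lower in the first, while 4 were higher in both. That overlap was not counted over all genes, so it cannot be called particular to the members. Other recombination and Fanconi genes were split, with 13 higher and 13 lower of 36 with sgZHX2 (median -0.01). With teton_sgZHX2, 13 of them were higher and 14 lower (median -0.06). For 18 other checkpoint genes the counts were 5 higher and 13 lower with sgZHX2, and 5 and 8 with teton_sgZHX2.

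MRE11 had 7.73, 6.79 and 7.09 CPM in sgZHX2 and 17.5, 17.4 and 16.3 CPM in sgCtrl libraries (log2 fold change -1.24, SE 0.08, adjusted p = 2.02e-18), and 9.52, 9.30 and 8.95 CPM in teton_sgZHX2 against 16.4, 17.1 and 19.7 CPM in teton_control libraries (-0.93). FANCD2 had 9.93, 10.9 and 9.53 CPM against 25.2, 25.8 and 24.8 CPM (-1.32), and 10.8, 13.6 and 13.2 CPM against 24.3, 23.7 and 25.1 CPM in the second pair (-0.96). RAD51B, a strand exchange factor, had 7.12, 5.95 and 5.83 CPM in sgZHX2 against 16.0, 17.7 and 13.5 CPM in sgCtrl (-1.32), and 6.74, 7.72 and 7.35 CPM in teton_sgZHX2 against 16.5, 14.8 and 16.7 CPM in teton_control (-1.14). TOPBP1 had 26.9, 25.8 and 27.4 CPM in teton_sgZHX2 against 52.0, 51.7 and 56.0 CPM in teton_control (-0.99, and -1.03 in the first pair). RAD51AP1 had 7.82, 6.98 and 7.76 CPM in sgZHX2 against 15.9, 15.8 and 17.3 CPM in sgCtrl (-1.12, and -0.65 in the second pair). Every library with a guide against ZHX2 lay below every control library of its pair for MRE11, FANCD2, RAD51B and TOPBP1.

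Of the kinases, CHEK1 had 11.3, 11.0 and 11.4 CPM in sgZHX2 and 22.4, 22.8 and 22.6 CPM in sgCtrl (-1.01, SE 0.06), ATM 6.95, 6.51 and 6.38 CPM against 14.3, 13.0 and 13.2 CPM (-1.02), and ATR 9.15, 9.12 and 9.90 CPM against 13.6, 12.1 and 12.7 CPM (-0.44). In teton_sgZHX2 cells ATM had 9.44, 9.06 and 8.73 CPM against 15.3, 14.8 and 14.3 CPM (-0.70), and ATR 10.2, 11.6 and 10.4 CPM against 14.8, 14.4 and 15.7 CPM (-0.48). CHEK2 did not pass the test in either pair. BRCA1 had 15.2, 14.2 and 13.9 CPM in sgZHX2 against 17.4, 19.2 and 18.0 CPM (-0.34), and 18.1, 18.3 and 18.5 CPM in teton_sgZHX2 against 19.9, 21.0 and 19.6 CPM (-0.14). The call in the second pair was lost without teton_sgZHX2 replicate 1 (-0.13) or 2 (-0.14) or teton_control replicate 2 (-0.11). BRCA2 had 16.2, 15.4 and 14.3 CPM in sgZHX2 against 24.2, 25.7 and 26.4 CPM, and 19.0, 19.5 and 21.0 CPM in teton_sgZHX2 against 28.7, 26.2 and 28.7 CPM (-0.49). The members that rose were led by 2 strand exchange factors: XRCC3 had 33.4, 33.4 and 30.7 CPM in sgZHX2 against 17.2, 15.2 and 17.1 CPM in sgCtrl (0.98, and 0.81 in the second pair), and RAD51D 15.6, 15.9 and 16.5 CPM against 8.39, 9.03 and 8.61 CPM (0.88 and 0.71). FANCG had 87.4, 87.0 and 85.7 CPM against 67.4, 69.8 and 70.1 CPM in the first pair (0.33, but -0.12 with GC and length offsets). ATRIP had 6.62, 6.77 and 6.99 CPM in teton_sgZHX2 against 5.10, 5.51 and 5.39 CPM (0.35), and CLSPN 6.37, 7.48 and 6.99 CPM against 5.82, 5.73 and 5.86 CPM (0.26). XRCC3 overlaps KLC1 on the opposite strand and RAD51D a readthrough gene, so these values may include other reads.

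These changes also went with GC content, with Spearman correlations over all genes of 0.56 for sgZHX2 and 0.47 for teton_sgZHX2. After GC and length offsets 23 members were lower and 6 higher with sgZHX2 (34.8% and 31.3% of all genes) and 20 lower and 8 higher with teton_sgZHX2 (32.0% and 31.7%), with medians of -0.23 and -0.13. FANCD2 (-1.02), RAD51B (-1.02), MRE11 (-0.74), RAD51D (1.06) and XRCC3 (0.47) stayed called in the first pair, while ATR (0.10) and BRCA1 (0.08) lost their calls, BRCA2 stood at -0.13 with no call and RAD51C turned to 0.14 and was called higher. In the second pair ATM (-0.13), ATR (-0.07), BRCA2 (-0.03) and ATRIP (0.07) lost their calls, and BRCA1 (0.17), BRIP1 (0.12) and RBBP8 (0.13) turned and were called higher. Proliferation markers summed to 1490 CPM in sgZHX2 against 1890 to 1930 CPM in sgCtrl, and to 1560 CPM in teton_sgZHX2 against 1860 to 1900 CPM in teton_control. Hypoxia markers were also lower with the guides, at 13000 to 13200 CPM in sgZHX2 against 17300 to 17500 CPM in sgCtrl and 13000 to 13300 CPM in teton_sgZHX2 against 17200 to 17400 CPM in teton_control. Mitochondrial genes took 1.67% to 1.71% of counts in sgZHX2 against 2.51% to 2.71% in sgCtrl, and 1.69% to 1.82% in teton_sgZHX2 against 2.84% to 2.95% in teton_control. COL1A1, a fibroblast marker that these cells also hold, was at 53.7 ± 0.77 CPM in sgZHX2 and 27.6 ± 1.52 CPM in sgCtrl, and the 11 non-luminal markers summed to 59.6 to 60.9 and 31.0 to 33.1 CPM. The part of these in the result was not tested.

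The effect of teton_sgZHX2 minus that of sgZHX2 was tested as 1 contrast, and 17 members were higher and 0 lower in it (12.0% and 8.33% of all genes; median 0.20; edgeR). The largest were RAD54B (0.55, SE 0.17), RAD51AP1 (0.47, SE 0.11), DNA2 (0.36) and FANCD2 (0.36, SE 0.10). XRCC3 (-0.17) and FANCG (-0.12) were lower at an unadjusted p under 0.05, at 0.0379 and 0.0158, and DESeq2 called 11 higher and 0 lower. With GC and length offsets 7 were higher. The share of all genes under DESeq2 or the offsets is not given here, so these counts cannot be set against it. Across all genes this difference had a Spearman correlation of -0.49 with GC content.

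The level of the kinases in untreated hypoxic cells differed between tables, which were not scaled together, so these values are only set side by side. ATR averaged 1.19 CPM in the hypoxic shCtrl cells of the shRNA table, 2.89 CPM in shCtrl cells with vector, 12.8 CPM in sgCtrl, 15.0 CPM in teton_control and 56.3 CPM in the hexanediol control. BRCA1 had the same order, at 1.56, 2.87, 18.2, 20.2 and 65.2 CPM. CHEK2 spanned less, at 11.8, 8.07, 14.1, 14.9 and 33.4 CPM. Hypoxia markers summed to 6590 to 6630, 22300 to 22600, 17300 to 17500, 17200 to 17400 and 3860 to 4010 CPM in the same 5 groups. The labels give no oxygen level or length of hypoxia apart from the 24 h of hexanediol, and whether these differed between tables was not tested.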

How the data were processed

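Poly(A) RNA of 45 T47D libraries was read as 150 bp pairs, per the labels' protocols. The authors deposited 4 tables of raw counts per gene. The submitters' processing notes name FastQC, HISAT2, featureCounts, DESeq2 and hg38; the sources used here give no version, annotation or strand setting. All 60624 identifiers were kept; 60370 had a symbol. Exonic length and GC came from GENCODE 29 on GRCh38, promoters from RefSeq.

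Each table was fitted alone in edgeR 4.0.16 (R 4.3.3): genes were filtered with filterByExpr, libraries scaled by TMM, and all groups of a table shared 1 quasi-likelihood fit with robust dispersion. The genes tested numbered 14903 in the shRNA, 16840 in the hexanediol, 14302 in the rescue and 15781 in the sgRNA table. A call is a Benjamini-Hochberg adjusted p under 0.05 over all genes of a table. CPM used TMM-scaled library sizes. SE was taken as the size of the log2 fold change over the root of the F statistic. The fits were tested on simulated data. Totals were 14111216 to 27217814 counts per library, and low members such as BRCA2 in hypoxia are the least precise. Replicates differed by more than sampling noise in all 45 pairs (chi-square per degree of freedom 1.7 to 25).

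Alternatives were scaling by total count, no filter, offsets for GC and length (mgcv 1.9.3), a replicate block, DESeq2 1.42.0, only the groups compared, and leaving out each library. Same-numbered libraries correlated above 0.1 in every pair for 1 of the comparisons, 1% against 0.5% hexanediol, at 0.12, 0.318 and 0.116 in their deviations from group means, the limit set for pairing. Libraries of another number reached 0.168 and 0.13 with replicates 1 and 3, so only replicate 2, the library that stands apart in both groups, correlated best with its own number, and no label says what a number shares. Values per library are given for ATR, ATM, CHEK1, CHEK2, BRCA1 and BRCA2 and for up to 4 rises and 4 falls per comparison, mostly the largest among called members at a mean log2 CPM of 1 or more and with no overlap. The members and lists were chosen with earlier results of these data known. Columns of other samples used: none.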

Additional observations from a re-analysis of the deposited data

Results flagged for a closer look

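In the sgRNA table the effect of teton_sgZHX2 over teton_control was set against that of sgZHX2 over sgCtrl. The difference itself passed edgeR's quasi-likelihood test for 17 members, all with a positive value, where 12.0% of all genes were higher and 8.33% lower. A positive value means a smaller fall or a larger rise in the teton pair. The difference had a Spearman correlation with GC content of -0.49 over all genes and -0.73 over the 41 members. Among the checkpoint and resection genes the differences in log2 fold change were 0.32 for ATM, 0.32 for CHEK1, 0.31 for MRE11, 0.34 for NBN and 0.36 for DNA2. Among the BRCA mediators they were 0.24 for BRCA2, 0.29 for BARD1, 0.28 for BRIP1 and 0.21 for UIMC1. Among the strand exchange factors they were 0.25 for RAD51C, 0.47 for RAD51AP1 and 0.55 for RAD54B. The Fanconi genes FANCD2, FANCI and FANCM had 0.36, 0.25 and 0.36, and the RPA subunits RPA1 and RPA3 had 0.25 and 0.28. RAD51C is the one of these that was not lower in the teton pair, at 0.04 there and -0.20 with sgZHX2 (0.29 and 0.14 with GC and length offsets). With those offsets 10 of the 17 lost their calls, among them ATM, CHEK1, MRE11, BRCA2, RAD51AP1 and RAD54B.

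With shZHX2, 5 members moved in opposite directions in the shRNA and rescue tables with no overlap of groups in either. CHEK1 was at 0.50 in the shRNA table and -0.87 in the rescue table, BARD1 at 0.78 and -0.81, MRE11 at 0.97 and -0.71, NBN at 0.64 and -0.94, and RPA1 at 0.55 and -0.11. With GC and length offsets RPA1 had -0.03 in the rescue table and no call (adjusted p = 0.439), so its reversal rests on the processing. The difference between the tables was not tested. With shZHX2, 33.6% of all genes were higher and 33.2% lower in the shRNA table, and 33.9% and 35.3% in the rescue table. Opposite calls and groups without overlap were not counted over all genes. These reversals therefore cannot be called particular to the members.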

How the results depend on the processing

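With scaling by total count, no filter or the replicate block, the counts of called members stayed within 1.5 times the reported count. This held in all 14 comparisons, with both directions together. The members given by name have 176 values, called or not. With the block, every one kept its call or its lack of one, and the called ones kept their direction. The split by direction moved more with total-count scaling: higher and lower were 17 and 4 for shZHX2 (11 and 9 with TMM), 18 and 4 for PA (9 and 7), 12 and 9 for WT (18 and 7) and 15 and 8 for PA against WT (6 and 12), where the larger side turned. DESeq2 gave 10 and 5 for shZHX2 and 4 and 7 for PA. The shares of all genes are not set beside the counts of this section. For SA against vector the 15 calls became 7 with GC and length offsets, 7 with the replicate block and those offsets, and 7 with DESeq2. For the difference between the guide pairs the 17 calls became 7, 7 and 11 under the same settings. Leaving out 1 library at a time gave 35 to 36 calls for hypoxia, 18 to 21 for shZHX2, 31 to 36 for 0.5% hexanediol, 30 to 32 for 1%, 26 to 28 for 1% against 0.5%, 25 to 28 for shZHX2 in the rescue table, 20 to 23 for WT, 11 to 14 for PA, 11 to 14 for SA, 17 to 23 for PA against WT, 17 to 18 for SA against WT, 32 to 34 for sgZHX2, 26 to 32 for teton_sgZHX2 and 12 to 17 for their difference. Among the calls of members given by name, directions turned for FANCG in hypoxia (-0.20 scaled by total count, -0.45 with offsets, -0.45 with block and offsets) and, with offsets and with block and offsets alike, for FANCG (-0.12 and -0.12), ATR (0.10 and 0.10) and BRCA1 (0.0751 and 0.0769) with sgZHX2 and BRCA1 with teton_sgZHX2 (0.17 and 0.17). BRCA2 with WT stood at -0.0019 with block and offsets. Of the other members, offsets turned RAD51B (0.56), RAD54L (-0.27) and SLX4 (-0.43) in hypoxia, NBN at 1% hexanediol (-0.30), and XRCC2 (0.38) and FANCE (-0.43) with sgZHX2, all called with offsets and not without, as well as the called RAD51C with sgZHX2 (0.14) and the called BRIP1 (0.12), RBBP8 (0.13) and FANCG (-0.11) with teton_sgZHX2; further members turned in sign and lost their calls. The cause was not tested. Of the 176 values of the named members, called or not, 16 lost their call with DESeq2. With offsets 25 lost their call without a turn in sign, 5 called values turned, and 8 uncalled values gained a call. Depth limits the members near 1 CPM in hypoxia.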
